A study of Homo sapiens with 4 samples.

Results

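A set of 10 genes of the negative feedback on the ERK pathway was examined, namely the dual-specificity phosphatases DUSP1, DUSP4, DUSP5, DUSP6 and DUSP10, the Sprouty genes SPRY1, SPRY2 and SPRY4, and the SPRED genes SPRED1 and SPRED2. They were chosen with earlier results of these data known and were taken by gene symbol. All 10 were present among the 23287 gene symbols of the RNA-seq files, with 17 RefSeq transcripts. With 1 added to each expression value (FPKM), DUSP1, DUSP4, SPRED1 and SPRED2 stood more than 1.5-fold higher after 3 h of progestin than in vehicle. On that scale DUSP5 and SPRY1 stood more than 1.5-fold lower. Without that addition SPRY2 and SPRY4 were also more than 1.5-fold higher, and DUSP6 and DUSP10 more than 1.5-fold lower, all from low values. PR binding sites were called near SPRED2, SPRY4 and DUSP6. DUSP5 and SPRY1 reached the minimum level required of a gene with vehicle alone, and SPRED1 with progestin alone. The direction of these genes was therefore already bound by that filter. The call of SPRY1 also rested on a transcript variant listed at 0 after progestin. The RNA-seq data came from T47D, a human breast cancer cell line of luminal type, 1 library from cells treated with 10 nM R5020, a synthetic progestin, for 3 h and 1 library from cells treated with the vehicle, ethanol (EtOH). The PR binding sites came from 1 chromatin immunoprecipitation (ChIP-seq) library of cells treated with 10 nM R5020 for 1 h, made with an antibody against the progesterone receptor (PR). Cells of every group were kept in medium with charcoal-stripped serum before treatment, and no ChIP-seq library of vehicle-treated cells was analysed here. With 1 library per condition no difference has a replicate check, no p-value is given, and each fold change compares these libraries rather than the conditions. In a culture taken as a whole, fewer expressing cells and less RNA per cell cannot be told apart.

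ERK is the last kinase of the RAS-RAF-MEK-ERK cascade, which carries growth factor signals to the nucleus. Its activity ends when dual-specificity phosphatases remove the phosphates that MEK placed on it, and it is damped further upstream by Sprouty and SPRED proteins, which act between the receptor tyrosine kinases and RAF. Many of these inhibitors are transcribed in response to ERK itself, so that their transcripts are often read as a record of pathway activity, and in breast epithelium the cascade meets steroid hormone signalling at the level of both kinases and target genes.

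The RNA-seq values were FPKM, the sequenced fragments of a transcript scaled to its length and to the library total, and were summed over the transcripts of a gene. The coverage deposited with the FPKM corresponded to 36203604 reads of 50 nt over the transcripts in R5020 and 35151493 in EtOH. The paper reports more unique paired-end reads than this for each library, and more for EtOH than for R5020. The read numbers given here are therefore conversions of coverage and not counts of sequenced reads. A gene was retained when its FPKM reached 1 in at least 1 library, which left 11018 genes, and a change is given as log2((FPKM in R5020 + 1) / (FPKM in EtOH + 1)), a scale that understates the change of low genes. The median change of the retained genes was 0.0053. At the 1.5-fold threshold, 845 retained genes (7.67%) were higher in R5020 and 456 (4.14%) were lower. The luminal markers of the cell line included PGR, the gene of the receptor itself, at an FPKM of 23.7 with EtOH and 15.3 with R5020, and ESR1 at 17.2 and 10.9. KRT8 and KRT18 were listed at 0 in EtOH with a failed estimate, whereas the other 6 of the 8 luminal markers exceeded an FPKM of 1 in both libraries. Summed FPKM of other cell types was low, from 2.09 (EtOH) to 1.72 (R5020) for basal markers, from 5.12 to 3.32 for fibroblast markers (nearly all COL1A1, with COL1A2 and COL3A1 at 0), from 0.222 to 0.315 for endothelial markers and from 0.0969 to 0.0287 for leukocyte markers.

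Within the ERK feedback genes the families did not move together. The 5 phosphatases summed to an FPKM of 6.17 with EtOH and 10.1 with R5020, a ratio of 1.64. Their median log2 change was nevertheless -0.22, with 2 genes above 0 and 3 below. The 3 Sprouty genes summed to 2.58 with EtOH and 2.39 with R5020. Their median log2 change was 0.28, with 2 genes above 0 and 1 below. The 2 SPRED genes summed to 4.41 and 11.3, a ratio of 2.57, and both were above 0. Over all 10 genes the median log2 change was 0.41, with 6 values above 0 and 4 below. Of the 8 genes that were retained, 4 were past the threshold upwards, 2 were past it downwards and 2 were within it, and these counts stand beside 7.67% and 4.14% of all retained genes. The 10 genes were chosen with earlier results of these data known, so these counts support nothing on their own. DUSP6 and SPRY4 stayed under an FPKM of 1 in both libraries. The level that let a gene be retained differed, since DUSP1, DUSP4 and SPRED2 reached an FPKM of 1 in both libraries, DUSP5, DUSP10 and SPRY1 in EtOH alone, and SPRY2 and SPRED1 in R5020 alone. A gene that passed through 1 library alone was already bound to differ in that direction.

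**Figure D1:**
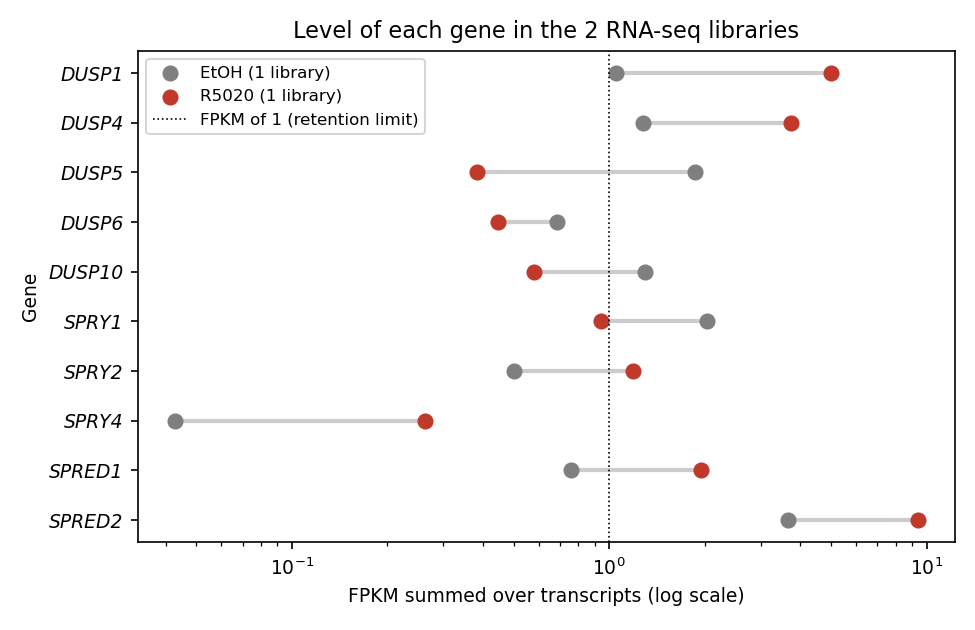
The FPKM of each gene, summed over its transcripts, is plotted on a log axis for the EtOH library (grey) and the R5020 library (red), 1 library each, with a dotted line at an FPKM of 1. The pairs of DUSP1, DUSP4 and SPRED2 lie above the line throughout, those of DUSP5, DUSP10 and SPRY1 cross it downwards with R5020, those of SPRY2 and SPRED1 cross it upwards, and those of DUSP6 and SPRY4 lie below it.

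The order of the levels changed accordingly. In EtOH it ran SPRED2, SPRY1, DUSP5, DUSP10, DUSP4, DUSP1, SPRED1, DUSP6, SPRY2 and SPRY4, from an FPKM of 3.65 down to 0.0428. In R5020 it ran SPRED2, DUSP1, DUSP4, SPRED1, SPRY2, SPRY1, DUSP10, DUSP6, DUSP5 and SPRY4, from 9.37 down to 0.263. SPRED2 stood first and SPRY4 last in both libraries. DUSP1 moved from the sixth place to the second and DUSP5 from the third to the ninth. With 1 library per condition no spread is known by which to separate neighbours in either order. Set among the retained genes, 62.1% had a higher FPKM than SPRED2 in EtOH and 31.3% in R5020, and 96.1% were above DUSP1 in EtOH and 52.4% in R5020.

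DUSP1, DUSP4 and DUSP5 encode inducible nuclear phosphatases of the family. DUSP1, which also dephosphorylates p38 and JNK and is a known early target of glucocorticoids, had an FPKM of 1.05 with EtOH and 4.98 with R5020. The log2 change was 1.54, and 1.44% of the retained genes were higher by as much or more. The deposited coverage corresponded to 203 reads in EtOH and 930 in R5020. For its transcript the authors deposited an FPKM interval of 0.583 to 1.14 in EtOH and 3.12 to 4.05 in R5020, so the R5020 value lay above the upper end of its own interval, while both intervals were well apart.

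DUSP4, which acts on ERK and JNK in the nucleus, had an FPKM of 1.28 with EtOH and 3.75 with R5020, a log2 change of 1.06. Of the retained genes, 3.04% were higher by as much or more. Nearly all of the level belonged to the transcript NM_001394, with an FPKM of 1.15 with EtOH and 3.45 with R5020, or 90.3% and 92.0% of the gene. The variant NM_057158, from a start inside the gene, had 0.124 and 0.301, so both variants were higher in R5020 and their proportion hardly moved.

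DUSP5, a nuclear phosphatase with a strong preference for ERK, went the other way. Its FPKM was 1.86 with EtOH and 0.384 with R5020, a log2 change of -1.05, and the linear ratio of EtOH to R5020 was 4.85. Among the retained genes, 1.21% were lower by as much or more. The level in R5020 rested on 94 reads by the deposited coverage, against 439 in EtOH. The interval of the EtOH value ran from 1.21 to 1.78, below the value itself, and that of the R5020 value from 0.209 to 0.484. DUSP1 and DUSP5 were the genes with a value outside its own interval, and they account for both such values among the 34 transcript values of the 10 genes.

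DUSP6, the cytoplasmic phosphatase most specific for ERK and a common readout of the pathway, was low throughout. The FPKM was 0.686 with EtOH and 0.445 with R5020, a log2 change of -0.22, so it was not retained. The transcript NM_001946 had 0.686 and 0.370, and NM_022652, which starts at the same place, was listed at 0 in EtOH and had 0.0750 in R5020. A long noncoding RNA on the opposite strand shares 28.6% of the exon bases of DUSP6 in GENCODE, and whether strand was used in the quantification is not given in the sources used here. The locus nevertheless held a PR binding site, chr12:89745209-89745622 (hg19), with a score of 117, at rank 983 of 11181 sites. The score was given by the peak caller MACS from its p-value for the ChIP-seq reads over the input, so that a higher score stands for a smaller p-value. Its midpoint lay 0.88 kb inside the gene from the start of transcription, and of its 414 bases 206 were coding sequence of exon 1 and 208 were intron. The 300-base window on its midpoint is printed because it is the PR binding site closest to a RefSeq transcription start among the 10 genes (hg19, + strand, no motif searched was found in it, hence no capitals).
DUSP6 chr12:89745266-89745565: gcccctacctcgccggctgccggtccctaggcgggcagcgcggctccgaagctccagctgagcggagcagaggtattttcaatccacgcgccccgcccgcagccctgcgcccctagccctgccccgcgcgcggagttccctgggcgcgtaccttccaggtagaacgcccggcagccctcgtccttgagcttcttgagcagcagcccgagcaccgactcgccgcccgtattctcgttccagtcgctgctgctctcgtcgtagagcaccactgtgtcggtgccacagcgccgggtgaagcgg
This window was rich in G and C, at 69.7% against a median of 57.3% over all windows.

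DUSP10 differs in substrate, being a phosphatase of p38 and JNK more than of ERK. Its FPKM was 1.30 with EtOH and 0.577 with R5020, a log2 change of -0.54, just inside the threshold. The linear ratio of EtOH to R5020 was 2.24, beside 2.16 for SPRY1, which was past the threshold. Its variants NM_007207 and NM_144729 start at the same place. The former had 0.666 with EtOH and 0.438 with R5020 with overlapping intervals, and the latter had 0.629 and 0.139 with intervals that did not overlap. The share of NM_144729 in the gene was thus 48.6% in EtOH and 24.2% in R5020. A further variant from an internal start, NM_144728, was listed at 0 in both libraries.

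**Figure D2:**
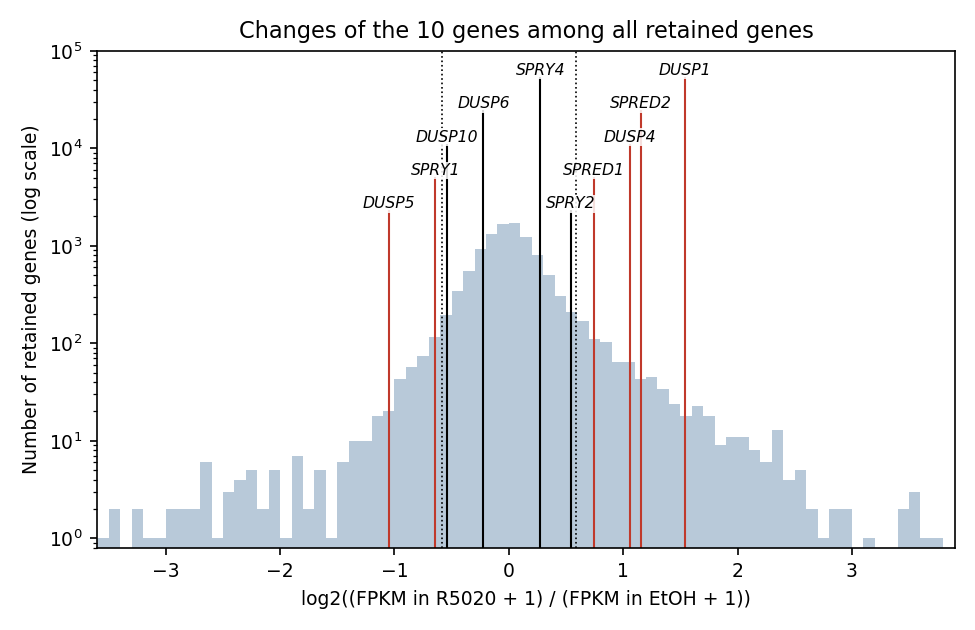
The bars count the 11018 retained genes by log2 change between R5020 and EtOH (log count axis, bins of 0.1), the labelled lines mark the 10 genes, red when retained and past 1.5-fold, and the dotted lines mark 1.5-fold. DUSP1 at 1.54 and DUSP5 at -1.05 lie farthest out on their sides. DUSP6 and SPRY4, which were not retained and are drawn for their position alone, lie near the bulk on this scale. The scale adds 1 to each FPKM and so holds low genes near 0.

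The Sprouty genes encode inhibitors that are recruited to the membrane after receptor activation and restrain the RAS to RAF step. SPRY1 had an FPKM of 2.03 with EtOH and 0.942 with R5020, a log2 change of -0.64 and past the threshold. The part played by each variant differed. NM_005841 had 1.52 with EtOH and 0.942 with R5020, and NM_199327, which starts farther upstream, had 0.517 in EtOH (25.4% of the gene) and was listed at 0 in R5020. The main variant alone gave a log2 change of -0.37, inside the threshold, so the call rested on the variant listed at 0.

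SPRY2 showed the opposite direction to SPRY1. It had an FPKM of 0.502 with EtOH and 1.19 with R5020, a log2 change of 0.54, inside the threshold. On the linear scale the ratio was 2.36. The values rested on 103 and 227 reads by the deposited coverage, and the intervals, 0.309 to 0.656 and 0.810 to 1.31, did not overlap.

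SPRY4 was the lowest of the 10 genes and at the same time the one with the most PR binding sites. Its FPKM was 0.0428 with EtOH and 0.263 with R5020, a log2 change of 0.28, from 20 and 119 reads by the deposited coverage. The linear ratio of R5020 to EtOH was 6.14, from values near the floor. In EtOH most of this small signal was given to NM_030964, at 0.0369, and in R5020 all of it was given to NM_001127496, at 0.263. Both variants start at the same place and are of nearly the same length, 4992 and 4941 nt. In all, 6 sites lay within 50 kb of the gene. This number or more was found at 5.99% of the retained genes and at 4.64% of all genes, and SPRY4 belongs to the latter background, since it was not retained.

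The highest of the 6, chr5:141694286-141694657 (hg19) with a score of 121, fell within the gene, and all of its 372 bases were coding sequence of exon 3, 10.15 kb from the start. The other 5 lay upstream, with midpoints at -1.04, -5.70, -17.45, -31.72 and -32.13 kb relative to the start of the RefSeq transcripts and scores of 72.9, 67.0, 80.0, 60.7 and 107. Each of them overlapped SPRY4-AS1, a long noncoding RNA gene, and the nearest one also fell in an exon of a noncoding SPRY4 transcript that GENCODE starts farther upstream. The median score over all sites was 74.5, so 3 of the 6 were above it. The windows of the sites with the 2 highest scores are printed, since they hold the contrast of a coding exon and a distal region with hormone response element letters (hg19, + strand). Capitals mark matches to the hexamer AGAACA and to the core ACANNNTGT, which overlap.
SPRY4 exon 3 chr5:141694322-141694621: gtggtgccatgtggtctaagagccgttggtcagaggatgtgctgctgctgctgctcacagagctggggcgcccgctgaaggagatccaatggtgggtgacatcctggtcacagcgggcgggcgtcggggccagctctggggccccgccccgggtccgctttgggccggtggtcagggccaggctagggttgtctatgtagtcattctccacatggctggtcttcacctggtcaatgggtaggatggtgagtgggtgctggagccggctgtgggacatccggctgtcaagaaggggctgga
SPRY4 upstream chr5:141736598-141736897: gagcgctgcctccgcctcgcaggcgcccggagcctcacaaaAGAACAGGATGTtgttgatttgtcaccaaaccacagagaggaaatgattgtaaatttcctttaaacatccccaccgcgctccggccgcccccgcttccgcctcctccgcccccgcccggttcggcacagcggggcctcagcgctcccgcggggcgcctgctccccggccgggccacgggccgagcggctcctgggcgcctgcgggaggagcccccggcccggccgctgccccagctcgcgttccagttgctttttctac
The upstream window differed from the full inverted repeat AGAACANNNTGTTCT by 1 mismatch, and the window of the site at -17.45 kb held the AP-1 letters TGACTCA on the other strand.

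SPRED proteins bind the RAS-GTPase activating protein neurofibromin (NF1) and bring it to the membrane, where it switches RAS off. SPRED1 and SPRED2 were both higher in R5020. SPRED1 had an FPKM of 0.760 with EtOH and 1.94 with R5020, a log2 change of 0.74, from 389 and 1132 reads by the deposited coverage. Its intervals were 0.648 to 0.884 and 1.77 to 2.17. NF1, the partner, had 10.7 with EtOH and 12.5 with R5020, a log2 change of 0.20, within the threshold.

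SPRED2 was the most abundant of the 10 genes. Its FPKM was 3.65 with EtOH and 9.37 with R5020, a log2 change of 1.16, and 2.62% of the retained genes were higher by as much or more. The coverage corresponded to 1477 and 3743 reads, the highest numbers among the 10 genes. The higher level in R5020 belonged to the variant from the upstream start, NM_181784, which had 2.74 with EtOH and 9.37 with R5020. The variant from the internal start at position 65593931 of chromosome 2, NM_001128210, had 0.913 in EtOH, 25.0% of the gene, and was listed at 0 in R5020. The variants overlap along the gene, so that the division of reads between them is an estimate of the authors' software.

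**Figure D3:**
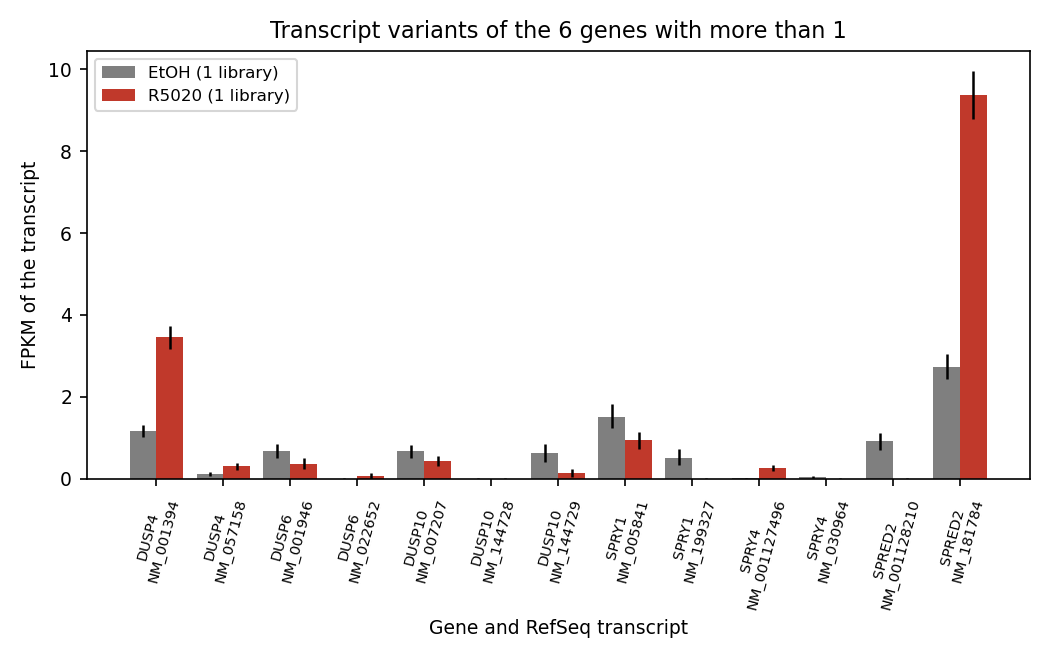
Bars give the FPKM of each RefSeq transcript of the 6 genes with more than 1, in EtOH (grey) and R5020 (red), 1 library each, and vertical lines give the interval deposited by the authors. The upstream variant of SPRED2 went from 2.74 to 9.37 while the internal one, at 0.913 in EtOH, was listed at 0 in R5020, and NM_199327 of SPRY1, at 0.517 in EtOH, was listed at 0 in R5020 too.

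SPRED2 was also the single gene of the 8 retained ones that had PR binding sites within 50 kb. The stronger site, chr2:65537683-65538077 (hg19), had a score of 385 and ranked 88 of 11181, in the top 0.787%. It spanned the 3′ end of the gene, with 93 of its 395 bases in the 3′ untranslated part of exon 6 and 302 beyond, and its midpoint lay 105 bp past the end. The other, chr2:65527305-65527786, had a score of 144, ranked 500 and lay 10.2 kb beyond the end. ACTR2, a gene of actin nucleation, was within 50 kb of both sites as well, at 39292 and 28914 bp, and had an FPKM of 48.5 with EtOH and 56.4 with R5020. The windows of both sites are printed because they are the ones beside a gene past the threshold (hg19, + strand, the first shortened to the bases beyond the gene). Capitals mark the core ACANNNTGT.
SPRED2 gene end chr2:65537730-65537984: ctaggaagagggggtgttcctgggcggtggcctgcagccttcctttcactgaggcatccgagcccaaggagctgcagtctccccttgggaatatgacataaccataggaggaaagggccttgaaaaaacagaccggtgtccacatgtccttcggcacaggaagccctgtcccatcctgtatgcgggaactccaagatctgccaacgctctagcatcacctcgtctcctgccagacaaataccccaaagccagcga
SPRED2 distal chr2:65527396-65527695: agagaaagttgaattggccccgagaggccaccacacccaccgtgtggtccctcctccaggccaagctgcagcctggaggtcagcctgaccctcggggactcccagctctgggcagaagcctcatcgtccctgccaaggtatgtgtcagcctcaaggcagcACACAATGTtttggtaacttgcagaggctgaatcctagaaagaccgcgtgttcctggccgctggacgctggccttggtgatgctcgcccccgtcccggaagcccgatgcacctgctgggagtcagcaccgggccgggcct
The stronger site thus held none of the letters searched, and the distal one held the core, with 2 mismatches to the full inverted repeat.

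**Figure D4:**
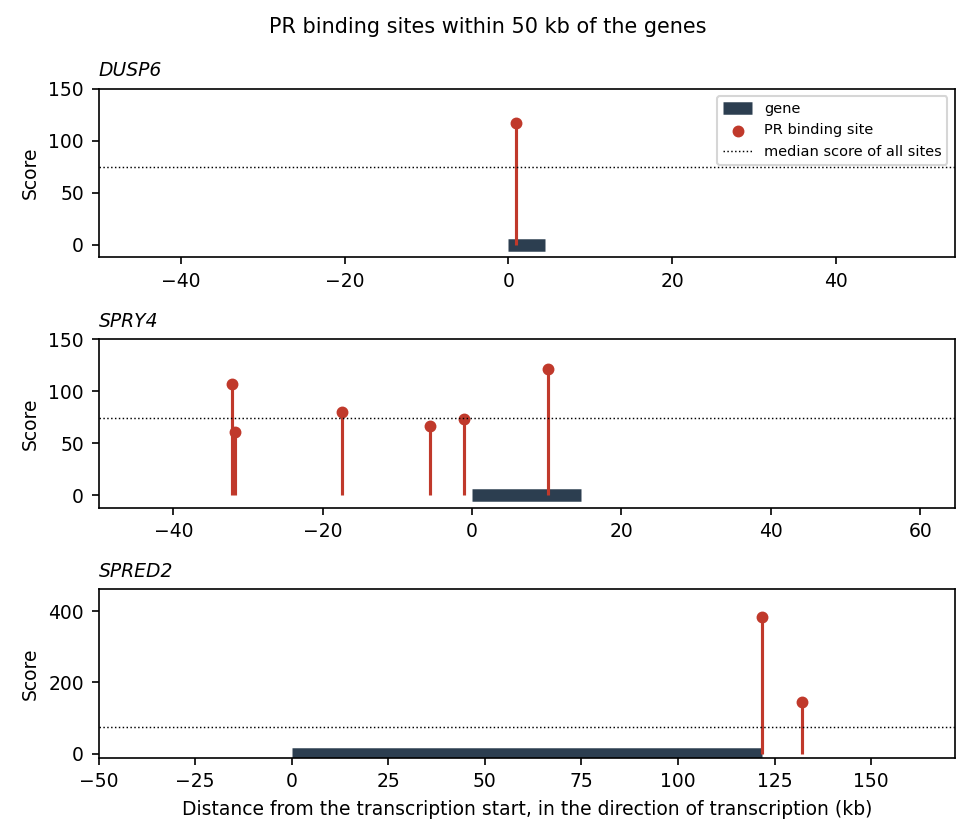
PR binding sites within 50 kb of DUSP6, SPRY4 and SPRED2 are drawn by the distance of their midpoint from the transcription start (kb, positive in the direction of transcription) and their score, with the gene as a dark bar and the median score of all sites as a dotted line. The SPRED2 sites sit at and beyond the 3′ end with scores of 385 and 144, and 5 of the 6 SPRY4 sites lie upstream.

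Taken over the 10 genes, 3 had at least 1 PR binding site at this distance, where 45.6% of all genes and 52.7% of the retained genes had one. Of the 8 retained genes it was 1, SPRED2. Among all genes past the threshold, 61.4% of those higher and 61.0% of those lower had a site. Of the 6 genes of the set past the threshold, 5 had none. The nearest site lay 74.1 kb from DUSP5, 81.0 kb from DUSP1, 161.4 kb from DUSP10, 222.9 kb from SPRED1, 261.3 kb from SPRY2, 681.3 kb from SPRY1 and 1118.6 kb from DUSP4. Sites were unevenly spread over the genome, from 0.560 to 11.6 per Mb of chromosome and 3.68 overall. The chromosomes of the 7 genes without a site within 50 kb held from 0.808 (SPRY2) to 4.71 (DUSP4) per Mb, and those of SPRED2, SPRY4 and DUSP6 held 1.25, 3.27 and 5.10. Distance says where a site was called and not which gene it acts on.

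Letters of known response elements were counted on both strands in 300-base windows on the midpoints of the sites. Of the 9 windows near the 10 genes, 1 held the hexamer AGAACA, and the share was 17.7% of 11178 windows over all sites and 19.1% of windows 5 kb away. The core ACANNNTGT was in 2 of the 9, against 8.20% and 7.40%. The AP-1 letters TGACTCA were in 1, against 5.05% and 4.73%. The forkhead letters TGTTTAC were in 0, against 2.58% and 3.34%, and the exact inverted repeat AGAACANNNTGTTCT, which contains both the hexamer and the core, was in 0, against 0.0268% and 0.00895%. Over all sites these exact letters were therefore about as common beside the sites as in them, apart from the rare inverted repeat, which was met in 3 windows. In the 1118 windows with the highest scores the core reached 15.8% and the hexamer 22.9%.

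The remaining genes of the pathway were given by fixed lists, 85 genes in all, of which 62 were retained. Of the retained ones 11 were higher (17.7%) and 3 were lower (4.84%), beside 7.67% and 4.14% of all retained genes. The lists were chosen with earlier results of these data known, so these shares support nothing on their own. Among the other MAPK phosphatases 1 of 3 retained genes was higher, DUSP16, a phosphatase of JNK and p38, with an FPKM of 2.10 with EtOH and 3.95 with R5020 and a log2 change of 0.68. The median over all 5 was 0.27. SPRY3 and SPRED3 stayed below an FPKM of 1 in both libraries. Of the atypical dual-specificity phosphatases, which mostly lack a MAPK docking domain, 1 of 7 retained genes was higher (DUSP14, 10.3 and 18.3, log2 change 0.77) and 1 was lower (DUSP23, 16.2 and 9.09, log2 change -0.77), and the median over all 9 was -0.12.

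Of the 17 retained genes of the RAS-RAF-MEK-ERK core 2 were higher and 0 lower, beside 7.67% and 4.14% of all retained genes, with a median over 18 of 0.08. These 2 were the adaptor GRB2, from 18.4 to 34.7 with a log2 change of 0.88, and SOS1, the exchange factor that loads RAS with GTP, from 4.62 to 11.6 with a log2 change of 1.16. None of the 3 RAS genes or of the RAF and MEK genes passed the threshold. RAS-GTPase activating proteins had 1 gene past the threshold of 8 retained, and a median over 9 of 0.05. This gene was RASA2, from 3.58 to 11.3 with a log2 change of 1.43. The paper lists RASA2, RASA3, RASA4 and RASAL1 as progestin-regulated, by its own fold change and p-value cut-offs. Here RASA3 and RASA4 were lower in R5020 but within the threshold on the scale with 1 added. RASAL1 was higher in R5020 but was not retained. Stress-activated MAPKs and their kinases, which include further substrates of DUSP1 and DUSP10, had 0 of 9 in either direction and a median over 11 of 0.05. Both of these lists also stand beside 7.67% higher and 4.14% lower among all retained genes.

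Receptors that feed the cascade had 2 of 9 retained genes higher and 0 lower, beside 7.67% and 4.14% of all retained genes. Their median over 12 was -0.02 (-0.24 over the 9). EGFR went from 2.25 to 6.69, a log2 change of 1.24, and IGF1R from 6.64 to 15.3, a log2 change of 1.10. Early genes that ERK is known to induce were the most mixed list, since 4 of 9 retained genes were higher and 2 were lower. These counts stand beside the same 7.67% and 4.14%, and this list too was chosen with earlier results of these data known. Its median was -0.01 over all 19, of which 10 were under an FPKM of 1 with changes held near 0 by the pseudocount. Over the 9 it was 0.23. The higher ones were CCND1, encoding cyclin D1 (22.2 to 120, log2 change 2.38), MYC (1.53 to 8.31, 1.88), ERRFI1, a feedback inhibitor of EGFR (3.55 to 14.7, 1.78), and MCL1, a survival protein (37.6 to 59.9, 0.66). The lower ones were IER2 (4.90 to 1.84, -1.05) and IER3 (35.1 to 18.0, -0.93). FOS and EGR1, the classical immediate early genes, stayed below an FPKM of 1 in both libraries, as did ETV4 and ETV5.

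**Figure D5:**
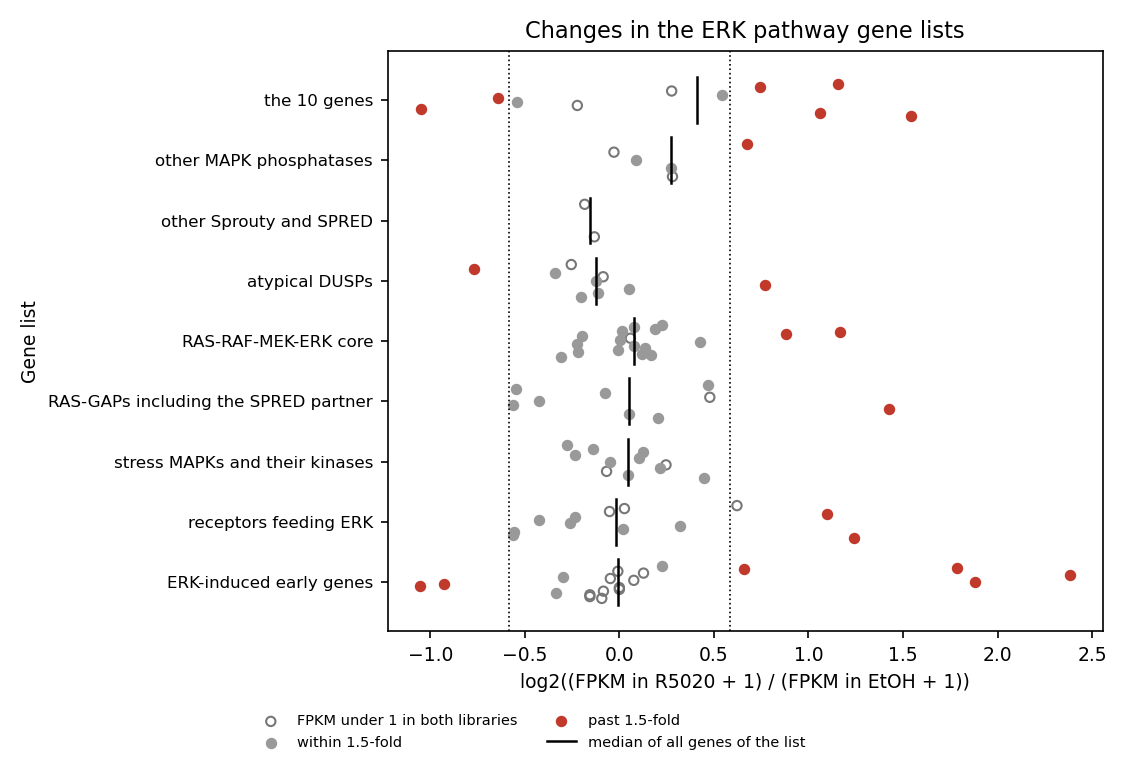
Each point is a gene of the named list at its log2 change between R5020 and EtOH, open when its FPKM was under 1 in both libraries, grey within and red past 1.5-fold (dotted lines), and the black stroke is the median over all genes of the list. The 10 ERK feedback genes spread from -1.05 to 1.54 around a median of 0.41. The core of the cascade spreads from -0.31 to 1.16 around 0.08, and the ERK-induced early genes from -1.05 to 2.38 around -0.01.

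The deposited intervals gave a further reading, within a library rather than between cultures. Of the 16 transcripts of the 10 genes with an FPKM above 0 in at least 1 library, 13 had intervals that did not overlap between EtOH and R5020. The same was true of 39.4% of the 22471 such transcripts of all genes, so that separate intervals were common. Among the 13 were the transcripts of DUSP1 and DUSP5, each with a value outside its own interval. Variants of SPRED2 and SPRY1 that were listed at 0 in R5020 were also among them. The intervals express the uncertainty of the estimate within 1 library, and the spread between cultures is unknown.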

How the data were processed

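T47D cells gave 1 R5020 and 1 EtOH RNA-seq library and 1 PR ChIP-seq library. The input DNA was not analysed here. The authors aligned 50-nt paired-end RNA reads to hg19 with TopHat and deposited Cufflinks FPKM values per RefSeq transcript with intervals. The coverage signal deposited by the authors, times transcript length over 50 nt, gave the read numbers. ChIP-seq reads were aligned with Bowtie 1.1.2, and the score of each site deposited by the authors was that of MACS against input. FPKM was summed by gene symbol, so no count test was possible and no p-value was computed. A pseudocount of 1, an FPKM minimum of 1 and 1.5-fold were used. A site belonged to a gene when its edge lay within 50 kb of any transcript. Positions are hg19, counted from 1, and parts of genes come from GENCODE on the same assembly. The position of 3 sites on unplaced contigs left 11178 windows for motifs. All 10 genes were named, and from fixed lists those past 1.5-fold, at most 5 per direction. The genes and lists were chosen with earlier results of these data known. The calculation was tested on simulated data, with changes well past the threshold in genes above the FPKM minimum. That test does not cover genes near the minimum or changes near the threshold. Python 3.11.15, pandas 2.3.3, numpy 2.4.6, pysam 0.24.0 and matplotlib 3.10.9 were used. Alternatives were other pseudocounts, filters, thresholds, distances, rescaled FPKM, the highest transcript, whole sites and, chosen after seeing the data, coverage in place of FPKM, no pseudocount and motif mismatches.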

Additional observations from a re-analysis of the deposited data

How the results depend on the processing

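No gene changed direction under any alternative. Of the 10 log2 changes, all 10 kept their side of the threshold after rescaling to a median of 0 or with coverage in place of FPKM. Of the genes past the threshold downwards, 1 (DUSP5) remained past it at 2-fold and 1 (DUSP5) with the highest transcript, where SPRY1 was at -0.37. With an FPKM of 1 required in both libraries 3 genes were higher and 0 lower, beside 6.47% and 2.92% of all such genes. At 2-fold 3 genes were higher and 1 was lower, beside 378 (3.43%) and 144 (1.31%) of all retained genes. With a pseudocount of 0.1, 5 genes were higher and 3 lower, since DUSP10 (-1.04), SPRY2 (1.09) and SPRY4 (1.35) passed 1.5-fold and SPRY4 was not retained, beside 1092 higher (9.91%) and 787 lower (7.14%) of all retained genes, in place of 845 and 456. Without a pseudocount DUSP6 passed 1.5-fold as well (-0.62). In the pathway lists 7 genes were lower with a pseudocount of 0.1, and at 2-fold 7 were higher and 1 was lower. Within 100 kb 5 of the 10 genes had a site, beside 57.1% of all genes and 64.3% of the retained ones. With up to 2 mismatches, 2 of the 9 windows matched the inverted repeat, against 2.46% of all windows and 1.64% of those 5 kb away. No paired analysis was possible because there is 1 library per condition, and for the same reason no replicate could be left out. Depth limits SPRY4 most, at 20 reads in EtOH.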
